A study of Mus musculus with 2 samples.

Results

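Replication-dependent histone genes were read as every gene symbol in the deposited gene table that starts with Hist1h, Hist2h, Hist3h or Hist4h and that had at least 1 UMI (a unique molecular identifier, which tags a captured RNA molecule) in either library. The table held 69 entries with those prefixes. Of these, 67 had a UMI, out of 17821 gene entries with a UMI and 28000 entries in all; the 67 members carry 66 symbols, because Hist2h2bb stands under 2 identifiers. Single cells came from trunk skin of mouse embryos at E15.5, where cells positive for tdTomato and negative for the dead-cell dye DAPI were sorted and captured with the 10x Genomics Chromium 3' kit. Both embryos carried an autosomal TyrCreB transgene (Cre under the Tyr promoter) and a tdTomato reporter that Cre switches on, on a mixed background close to C57BL/6J. The WT embryo was Hira wt/wt and the KO embryo Hira fl/fl, so that Cre deletes Hira in the marked cells and their descendants. The Tyr promoter is active outside the melanocyte lineage too, and the sorted cells held glial-like, mesenchymal-like and blood-like cells beside melanoblast-like cells.

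There was 1 library of 1 embryo per genotype. No difference between WT and KO below therefore has a replicate check, and no test between the genotypes could be run. The WT library held 1546 cell barcodes with 7073939 UMIs, of which 1540 cells were kept, with a median of 3967.5 UMIs. The KO library held 846 barcodes with 5049514 UMIs, of which 828 cells were kept, with a median of 5204.5 UMIs. The libraries shared 0 barcodes. Xist, transcribed from the inactive X chromosome, had 16825 UMIs in WT against 24 in KO, while the Y-linked Eif2s3y had none in WT and 220 in KO. The WT embryo was thus female and the KO embryo male by these genes, so sex and genotype cannot be told apart. Hira had 82 UMIs in WT, or 11.6 CPM (counts per 100 times 10000 UMIs of the group), against 51 in KO, or 10.1 CPM. These are tags at the 3' end, and where the deleted stretch lies relative to that tag is not known from the files, so the count checks no deletion.

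Replication-dependent histone genes make the bulk of the core histones H2A, H2B, H3 and H4 and of the linker histone H1 while DNA is copied, when new nucleosomes must be assembled. Most of their mRNAs end in a conserved stem-loop that SLBP binds, instead of a poly(A) tail, so a kit that primes on poly(A) reads mainly their polyadenylated forms and internally primed molecules. HIRA, in contrast, is a chaperone of the replacement histone variant H3.3, which is deposited outside replication as well, while the genes described here supply the H3 forms placed at replication forks.

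Members were a small part of each library. They had 6383 UMIs in WT, or 902 CPM (95% interval 880.3 to 925), and 4335 UMIs in KO, or 858 CPM (95% interval 833 to 884). All intervals for CPM are exact Poisson intervals, those for log2 ratios are exact conditional binomial intervals and those for shares of cells are Clopper-Pearson intervals; they cover counting error only. The 18 members with at least 100 UMIs over both libraries held 9288 of 10718 member UMIs, or 86.7%, and are the ones named with values. Hist1h3c, with 101 UMIs, fell just inside that limit, and Hist1h2ao, with 89, just outside. The remaining 49 members included 25 with fewer than 20 UMIs. Per-gene levels compare molecules tagged near a polyadenylated or A-rich end, so a level says little of the gene's non-polyadenylated mRNA.

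By family, the 19 H2A members made up 43.9% of member UMIs in WT and 52.9% in KO. The 17 H2B members held 27.1% and 23.8%, and the 6 H1 members 15.46% and 11.5%. The 13 H4 members held 10.0% and 8.51%, and the 12 H3 members 3.51% and 3.25%. H2A was thus the leading family in both libraries and H3 the least detected. Over whole libraries, the log2 ratio of KO over WT was 0.20 (95% interval 0.12 to 0.28) for H2A, -0.26 (95% interval -0.37 to -0.15) for H2B, -0.50 (95% interval -0.66 to -0.34) for H1, -0.31 (95% interval -0.50 to -0.12) for H4 and -0.18 (95% interval -0.50 to 0.13) for H3. H2A was the family with a higher level in KO, but the libraries differ in which cell types they hold, so the library-wide ratio mixes level and composition.

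The H1 genes named are Hist1h1c (ENSMUSG00000036181), Hist1h1b (ENSMUSG00000058773) and Hist1h1e (ENSMUSG00000051627), linker histone subtypes that bind DNA between nucleosomes. Their levels over whole libraries were 68.8 CPM in WT and 53.1 in KO for Hist1h1c. Hist1h1b had 32.8 and 21.4 CPM, and Hist1h1e 31.8 and 18.4 CPM. All the named H1 genes were lower in the KO library. Among the H2A genes, which code for near-identical core histones, Hist1h2ap (ENSMUSG00000094777) had the most UMIs of all members over both libraries together. It had 858 UMIs in WT (121 CPM) and 1006 in KO (199 CPM), a log2 ratio of 0.72 (95% interval 0.58 to 0.85). Its largest count in a single cell was 11 UMIs in WT and 25 in KO. Hist1h2ae (ENSMUSG00000069272) went the other way, with 99.0 CPM in WT and 70.3 in KO, a log2 ratio of -0.49 (95% interval -0.68 to -0.31). Hist3h2a (ENSMUSG00000078851) had 45.4 CPM in WT and 27.7 in KO, again lower in KO.

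Hist1h2ak (ENSMUSG00000063021) had 27.0 CPM in WT and 31.1 in KO, Hist1h2ag (ENSMUSG00000069301) 24.7 and 28.5, and Hist1h2al (ENSMUSG00000091383) 19.4 and 19.2. Hist2h2ac (ENSMUSG00000068855) had 15.3 and 13.7 CPM, and Hist1h2af (ENSMUSG00000061991) 10.0 and 12.5. The interval of KO over WT included 0 for all 5 of these genes. Hist1h2ac (ENSMUSG00000069270) was not, with 6.79 CPM in WT and 15.1 in KO, a log2 ratio of 1.15 (95% interval 0.61 to 1.70).

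In the H2B family, Hist1h2bc (ENSMUSG00000018102) had 1141 UMIs in WT (161 CPM) and 601 in KO (119 CPM), a log2 ratio of -0.44 (95% interval -0.58 to -0.29). Hist3h2ba (ENSMUSG00000056895) had 29.7 CPM in WT and 44.8 in KO, and Hist1h2bj (ENSMUSG00000069300) 14.8 and 8.71. Hist1h2bc was therefore the leading member of WT, and Hist1h2ap of KO. The named H4 genes, whose product pairs with H3 in the nucleosome core, were Hist1h4i (ENSMUSG00000060639), with 54.7 CPM in WT and 42.0 in KO, and Hist1h4d (ENSMUSG00000061482), with 11.5 and 10.1. Hist1h3c (ENSMUSG00000069310), the only H3 gene past the limit, had 9.47 CPM in WT and 6.73 in KO. No H3 gene among the members was read from more than 67 UMIs in a library, and H3 is the thinnest member family in these data. The H3.3 genes, whose product HIRA deposits, are not members.

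Cells were grouped with all members and the cell cycle lists held out of the clustering, and each of 22 clusters was named from marker lists. Melanoblast-like cells numbered 535 in WT and 139 in KO, with member sums of 1012 CPM and 1139.9 CPM. Glial-like cells numbered 447 and 254, with 850.1 and 1117 CPM, and mesenchymal-like cells 215 and 256, with 789 and 737 CPM. The intervals of glial-like cells (806 to 896) and mesenchymal-like cells (737 to 845) overlapped in WT, and those of melanoblast-like cells (1069 to 1214) and glial-like cells (1058 to 1179) in KO. Melanoblast-like cells were thus clearly highest of these classes in WT, and mesenchymal-like cells clearly lowest in KO. Macrophage-like cells had 978 CPM in WT (146 cells) and 889 in KO (35 cells). Adipocyte-like cells had 888 (45 cells) and 798 CPM (7 cells), and keratinocyte-like cells 542 (12 cells) and 539 CPM (81 cells). Mast-like cells had 656 CPM in 92 WT cells, against 3 KO cells. Lowest of all were erythroid-like cells, with 97.1 CPM from 2 UMIs in 5 WT cells and 71.0 CPM from 9 UMIs in 19 KO cells. Endothelial-like cells had 1268 CPM in 21 WT cells and 646 in 8 KO cells. Neutrophil-like cells had 515 CPM in 7 WT cells and 1134 in 7 KO cells, pericyte-like cells 272 in 3 and 1466 in 5, and the cells of the unnamed cluster 504 in 12 and 695 in 14. These small classes rest on too few cells to be compared between libraries.

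The same marker lists show RNA of other cell types in each class. In WT, 8 erythroid markers summed to 78.4 CPM in melanoblast-like cells (4 of 8 with a UMI), 87.6 in glial-like cells (4 of 8) and 83.7 in mesenchymal-like cells (4 of 8). In KO they summed to 1119.9 (6 of 8), 1131 (7 of 8) and 1216 CPM (7 of 8), led in every case by the haemoglobin gene Hbb-bs. Keratinocyte markers, led by Krt10, went from 70.6, 86.4 and 75.3 CPM in the WT classes, in that order, to 549, 600.1 and 556 in the KO classes, with 8, 9 and 9 of 9 seen. Neutrophil markers, led by S100a8, went from 36.7, 31.3 and 31.1 CPM to 216, 212 and 219.9, with 6, 7 and 6 of 7 seen in KO. Mast markers, led by Cma1 except in KO glial-like cells (Cpa3), went the other way, with 6 of 8 seen in each WT class and 5, 4 and 4 in KO, from 121, 127 and 110.1 CPM in WT to 18.8, 26.8 and 18.5 in KO. The mesenchymal list, all 10 genes seen, rose from 221 CPM (WT) to 725 (KO) in melanoblast-like cells, led by Fbln1 in WT and Col1a2 in KO, and from 2719 to 3675 in glial-like cells, led by Col1a2. RNA of these lists thus differed between the libraries within a class. Whether it came from free RNA, from doublets or from the cells themselves was not tested, and neither was its bearing on the member levels.

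Cycling state was set for cells with at least 2000 UMIs, 1438 in WT and 805 in KO, after each was thinned to 2000 UMIs so that depth could not set the state. The state lists hold S phase genes such as Mcm5 and Pcna and G2/M genes such as Top2a and Cdk1, and no member. A cell with at least 5 S phase UMIs and fewer than 10 G2/M UMIs was called S-high, a cell past both limits S+G2M-high, a cell with at least 10 G2/M UMIs alone G2M-high, and the rest low. The former 3 states together are called cycling. Because the members set no state, their level across states is not fixed by the definition. Cycling cells made up 47.4% of melanoblast-like cells in WT (249 of 525, 95% interval 43.1 to 51.8) and 48.9% in KO (68 of 139, 40.4 to 57.5). For glial-like cells the shares were 35.0% (143 of 409, 30.3 to 39.8) and 35.8% (88 of 246, 29.8 to 42.1). For mesenchymal-like cells they were 46.1% (95 of 206, 39.2 to 53.2) and 31.9% (80 of 251, 26.2 to 38.03). Melanoblast-like and glial-like cells had like shares in both libraries, while the mesenchymal-like share was lower in KO. Melanoblast-like and mesenchymal-like cells of WT and KO lay mostly in different clusters, so these class shares also mix clusters. In the mesenchymal-like cluster led by Crabp1 and Twist2, 86 of 165 WT and 43 of 99 KO cells were cycling. In the one led by Mfap5 and Clec3b, 8 of 38 WT and 33 of 128 KO cells were, with no fall in KO. Erythroid-like cells, which should lack these RNAs, averaged 0.200 S and 0.200 G2/M UMIs in WT and 0.211 and 0.474 in KO, far under the limits.

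The member sum did not peak in S-high cells. In WT melanoblast-like cells it was 576 CPM in low, 486 in S-high, 1682 in S+G2M-high and 1544 in G2M-high cells. In KO melanoblast-like cells the same states had 732, 507, 2204 and 1580.2 CPM. Glial-like cells had 588, 227, 2129.6 and 1398 CPM in WT and 654, 673, 2815 and 1434 in KO. In both classes and both libraries, the cells past both limits held the most member RNA per UMI and G2M-high cells came next. Mesenchymal-like cells had 321, 449, 1847 and 1113 CPM in WT and 247, 535, 3619 and 1139 in KO, in the same order at the top but with the lowest level in low cells. Over the 3 classes together, the log2 ratio of S+G2M-high over S-high cells was 2.18 (95% interval 1.99 to 2.37) in WT and 2.40 (95% interval 2.204 to 2.60) in KO. S-high over low cells gave -0.39 (95% interval -0.58 to -0.20) in WT and 0.23 (95% interval 0.02 to 0.43) in KO, so over the classes together, cells with S phase RNA alone were within 1.5-fold of low cells. Single classes went further and opposite ways. S-high cells had 227 CPM against 588 in low cells of the WT glial-like class, and 535 against 247 in the KO mesenchymal-like class.

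**Figure D1:**
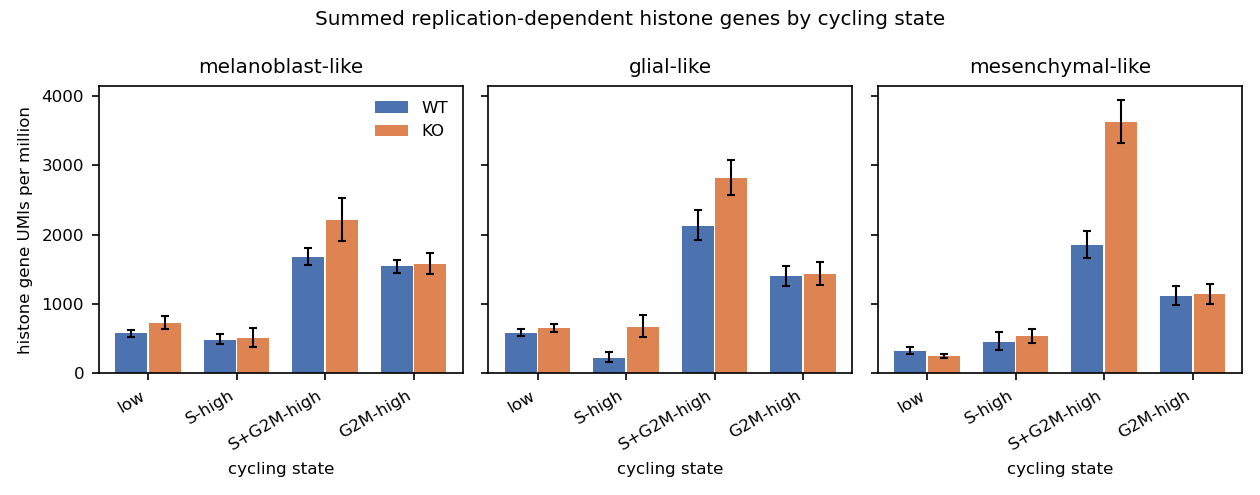
Member sum in CPM (vertical axis, exact Poisson 95% intervals) by cycling state for the melanoblast-like, the glial-like and the mesenchymal-like class of the WT and KO libraries. S+G2M-high cells are the highest state in every class, from 1682 CPM in WT melanoblast-like to 3619 CPM in KO mesenchymal-like cells.

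A finer grid of the S and G2/M counts of the 3 classes showed the same shape in WT and only part of it in KO. In WT cells with fewer than 10 G2/M UMIs, the member sum was 529 CPM with 0 to 4 S phase UMIs, 361 with 5 to 9 and 556 with 10 or more. In WT cells with 20 or more G2/M UMIs, it was 1477, 2041 and 2794 CPM over the same S ranges, the last from 15 cells. At high G2/M counts, member RNA in WT thus increased with S phase RNA, and at low G2/M counts it showed no such order. In KO, the low G2/M cells had 478 (95% interval 448 to 510), 405 and 1009 CPM (95% interval 835 to 1209), the last from 19 cells. KO cells with 10 or more S phase and few G2/M UMIs were thus above low cells. The KO cells with 20 or more G2/M UMIs had 1325, 4241 and 3752 CPM, from 65, 18 and 3 cells. The KO peak, 4241 CPM, rests on 18 cells. The 95% intervals of cycling over low cells were clear of 0 in every class: 1.19 (95% interval 1.06 to 1.33) (WT) and 0.98 (95% interval 0.77 to 1.19) (KO) for melanoblast-like cells, 1.09 (95% interval 0.93 to 1.25) and 1.44 (95% interval 1.27 to 1.61) in glial-like cells, and 1.95 (95% interval 1.70 to 2.203) and 2.63 (95% interval 2.42 to 2.84) in mesenchymal-like cells, as log2 ratios. With cells of at least 500 genes, the KO melanoblast-like value became -0.82, with 6 KO cells in a melanoblast-like cluster where there had been 139.

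The families differed in how they followed the cycle. Over the 3 classes, H2A members summed to 104 CPM in low and 736 in cycling cells of WT, and 101 and 1062 in KO. The log2 ratio of cycling over low cells was 2.83 (95% interval 2.64 to 3.02) in WT and 3.39 (95% interval 3.18 to 3.61) in KO, the steepest of the families. H3 members had 1.75 (95% interval 1.20 to 2.33) and 1.33 (95% interval 0.75 to 1.93), H4 members 1.41 (95% interval 1.10 to 1.73) and 1.09 (95% interval 0.73 to 1.45), and H1 members 0.75 (95% interval 0.51 to 0.98) and 0.83 (95% interval 0.53 to 1.12). The H2B sum stood apart, with 267 CPM in low and 217 in cycling WT cells, a log2 ratio of -0.30 (95% interval -0.47 to -0.14). In KO the H2B values were 219 and 203 CPM, with -0.11 (95% interval -0.33 to 0.10), an interval that includes 0. Hist1h2bc held 500 of the 666 H2B UMIs of low WT cells and 305 of the 573 of cycling ones, and Hist3h2ba 110 and 65. In KO, Hist1h2bc held 291 of 434 and 157 of 315, and Hist3h2ba 109 and 60. The remaining H2B UMIs were more numerous in cycling than in low cells of both libraries. The H2B ratios thus rest on Hist1h2bc and Hist3h2ba and do not describe the other H2B members.

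Within H2A, Hist1h2ap had 11.6 CPM in low, 59.7 in S-high, 444 in S+G2M-high and 228 in G2M-high cells of WT. In KO it had 21.2, 153, 1153 and 355 CPM. Its log2 ratio of cycling over low cells was 4.42 (95% interval 3.88 to 5.01) in WT and 4.59 (95% interval 4.14 to 5.07) in KO, from 660 UMIs in cycling and 29 in low WT cells and 794 and 42 in KO. Hist1h2ae went from 13.7 CPM in low to 344 in S+G2M-high WT cells and from 20.2 to 367 in KO, with log2 ratios of cycling over low cells of 3.89 and 2.99. Hist1h2al, from 3 UMIs in low cells of each library, reached 38.6 CPM in cycling WT and 48.9 in cycling KO cells, with ratios of 5.00 (95% interval 3.41 to 7.30) and 5.01 (95% interval 3.41 to 7.32). Hist1h2af, from 2 low-cell UMIs in each library, gave 4.87 (95% interval 2.95 to 7.94) and 5.08 (95% interval 3.15 to 8.16). Each of these 4 H2A genes had fewer than 50 UMIs in the low cells of either library. The same ratio was 3.25 in WT and 3.85 in KO for Hist1h2ak, 3.96 (95% interval 1.99 to 7.06), from 2 low-cell UMIs, and 3.93 for Hist1h2ac, and 1.80 and 2.08 for Hist1h2ag. Hist2h2ac gave 3.05 (95% interval 2.05 to 4.23) in WT and, from 1 UMI in KO low cells, 6.08 (95% interval 3.54 to 11.41) in KO. Among the other families, linker genes Hist1h1b and Hist1h1e had ratios of 3.43 and 1.90 in WT and 3.69 and 2.14 in KO. Hist1h3c had 2.202 and 2.16, Hist1h4d 2.35 and 1.45, Hist1h4i 1.38 and 1.31, and Hist1h2bj 1.89 in WT, with 4.55 CPM in low and 12.9 in cycling KO cells. In all, 14 of the 18 named members were higher in cycling than in low cells of both libraries.

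**Figure D2:**
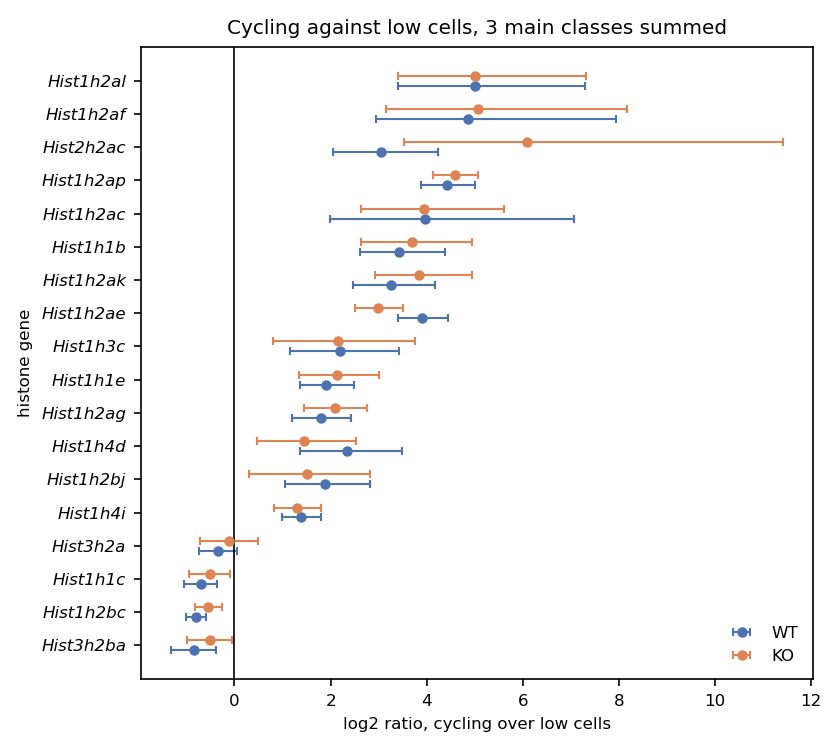
Log2 ratio of cycling over low cells (horizontal axis, conditional binomial 95% intervals) for the 18 named members over the 3 classes, in the WT and KO libraries. Hist1h2al, Hist1h2af and Hist1h2ap lie above 4 in both libraries, and Hist1h2bc, Hist1h1c, Hist3h2ba and Hist3h2a lie below 0.

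Counts of members past a 2-fold difference were read against all genes, for genes with at least 20 UMIs over both groups and with a group at 0 set to 3 counts. In WT melanoblast-like cells, 17 of 21 members were at least 2-fold higher in cycling than in low cells, where 5.3% of all genes were. In KO melanoblast-like cells it was 8 of 13, against 5.32%. Glial-like cells gave 8 of 12 in WT, against 5.23%, and 9 of 13 in KO, against 5.79%. Mesenchymal-like cells gave 9 of 12 in WT, against 8.07%, and 11 of 15 in KO, against 4.88%. Higher members were thus a larger share than that of all genes in each of the 6 groups. The UMI minimum, which was the same for all genes, is reached by members with few low-cell UMIs, such as Hist1h2al and Hist1h2ac, through their cycling cells, so the counts and the medians rest partly on such members. Hist1h2ak, Hist1h1b, Hist1h2ap, Hist1h2ag, Hist1h2ae, Hist1h1e and Hist1h2al passed in every group. The median log2 ratio of the members read was 2.08 (WT) and 1.57 (KO) for melanoblast-like, 2.36 and 2.66 for glial-like and 1.99 and 3.79 for mesenchymal-like cells. Over all genes it was 0.06, 0.05, 0.01, 0.02, 0.06 and 0.01 in the same order. In the other direction, 1 of 21 members (Hist1h2bc) was lower in WT melanoblast-like cells, against 2.19% of all genes, and 2 of 13 (Hist1h2bc and Hist1h1c) in KO, against 2.45%. In WT glial-like cells 1 of 12 (Hist1h1c) was lower, against 3.64%. In KO glial-like cells 0 of 13 were lower, against 5.09%, and in mesenchymal-like cells 0 of 12 in WT and 0 of 15 in KO, against 4.32% and 3.91%. Between cycling states, 16 of 18 members were higher in S+G2M-high than in S-high cells of WT, against 4.36% of all genes, and 14 of 17 in KO, against 4.77%. Here too some members, such as Hist1h2af, reached the UMI minimum mostly through S+G2M-high cells. None was lower in either library, against 2.46% and 4.07%.

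Over the 3 classes together, the named members below 0 in both libraries were Hist1h2bc, Hist1h1c, Hist3h2ba and Hist3h2a. Hist1h2bc had 201 CPM in low, 35.8 in S-high, 47.1 in S+G2M-high and 205 in G2M-high cells of WT. In KO it had 147, 28.9, 24.0 and 195 CPM. Its level was thus low in both states with S phase RNA and high on either side of them, with log2 ratios of S-high over low cells of -2.49 (95% interval -3.14 to -1.90) in WT and -2.35 (95% interval -3.27 to -1.55) in KO. Hist1h1c followed the same course, with 75.1, 11.9, 29.3 and 76.4 CPM in WT and 69.8, 20.02, 33.6 and 77.1 in KO. Hist3h2ba had 44.2, 5.97, 20.4 and 37.8 CPM in WT and 55.1, 15.6, 38.4 and 53.9 in KO. For these genes S-high cells, or in KO Hist1h2bc S+G2M-high cells, were the lowest state. For Hist3h2a, S-high cells had 14.9 CPM in WT and 11.1 in KO, against 48.2 and 29.3 in low cells, while its ratios of cycling over low cells, -0.34 (95% interval -0.73 to 0.06) in WT and -0.12 (95% interval -0.73 to 0.48) in KO, included 0. These values pool classes whose share differs between states. Class by class, Hist1h2bc was below 0 with a clear interval in melanoblast-like cells, at -1.26 (95% interval -1.56 to -0.96) (WT) and -1.65 (95% interval -2.26 to -1.07) (KO), and in WT glial-like cells, at -0.51 (95% interval -0.88 to -0.15), but not in mesenchymal-like cells. Hist1h1c was so in glial-like cells, at -1.06 (95% interval -1.67 to -0.48) and -0.98 (95% interval -1.63 to -0.36), and in KO melanoblast-like cells, at -1.21 (95% interval -2.14 to -0.33), but above 0 in KO mesenchymal-like cells, at 0.96 (95% interval 0.11 to 1.82). Hist3h2ba, which is mostly read in glial-like cells, was so in KO glial-like cells alone, at -0.74 (95% interval -1.39 to -0.13), and Hist3h2a in none.

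Cell by cell, member RNA was sparse. After thinning to 2000 UMIs, 65.1% of WT melanoblast-like cells (342 of 525, 95% interval 60.9 to 69.2) and 73.4% of KO ones (102 of 139, 65.2 to 80.5) had a member UMI. The shares were 61.4% in WT and 62.2% in KO glial-like cells, and 51.9% and 45.8% in mesenchymal-like cells. In erythroid-like cells, which should lack member RNA, 0 of 5 WT cells had a member UMI, which the exact interval allows to be a share of up to 52.2%, and 2 of 19 KO cells did, or 10.5% (95% interval 1.30 to 33.1). The median depth before thinning was 4148 UMIs in WT and 7295 in KO erythroid-like cells, against 4374 and 5654 in melanoblast-like, 3466 and 4244 in glial-like and 4447 and 5436 in mesenchymal-like cells. The KO shares of all 3 classes stood above the KO erythroid-like share beyond counting error. High counts of Hist1h2ap were gathered in few cells. In WT, 64 of 1540 cells had at least 5 Hist1h2ap UMIs and held 395 of its 858 UMIs, with 34 of those cells S+G2M-high, 27 G2M-high, 3 S-high and 0 low. In KO, 79 of 828 cells had at least 5 and held 830 of its 1006 UMIs, with 44 of them S+G2M-high, 28 G2M-high, 5 S-high and 2 low. By class, such cells were 31 of 535 WT and 20 of 139 KO melanoblast-like, 9 of 447 and 26 of 254 glial-like, and 14 of 215 and 22 of 256 mesenchymal-like cells. These are counts of unthinned UMIs, and KO cells were deeper. After thinning to 2000 UMIs, the share of cells with a Hist1h2ap UMI was 17.0% (95% interval 13.8 to 20.4) in WT and 21.6% (95% interval 15.1 to 29.4) in KO melanoblast-like cells. It was 8.80% (95% interval 6.24 to 12.0) and 15.04% (95% interval 10.8 to 20.1) in glial-like cells, and 14.1% (95% interval 9.64 to 19.6) and 12.7% (95% interval 8.89 to 17.5) in mesenchymal-like cells. The WT and KO intervals overlapped in each class.

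The comparison of KO with WT within a cell class shows the member level beside the Hira genotype. The member sum gave a log2 ratio of KO over WT of 0.17 (95% interval 0.06 to 0.28) in melanoblast-like, 0.39 (95% interval 0.29 to 0.50) in glial-like and -0.10 (95% interval -0.23 to 0.03) in mesenchymal-like cells. All of these are under 1.5-fold, and the mesenchymal-like interval includes 0. The melanoblast-like value became -0.04 with cells of at least 500 genes, where 6 KO cells remained in the class. Without Hist1h2ap, the values were 0.04 (95% interval -0.08 to 0.16), 0.19 (95% interval 0.07 to 0.31) and -0.31 (95% interval -0.46 to -0.16), so this gene alone carried most of the melanoblast-like and much of the glial-like value. In low cells the member ratios were 0.35 (95% interval 0.13 to 0.56) in melanoblast-like, 0.15 (95% interval -0.03 to 0.34) in glial-like and -0.38 (95% interval -0.68 to -0.08) in mesenchymal-like cells. In cycling cells they were 0.13 (95% interval 0.00393 to 0.26), 0.50 (95% interval 0.36 to 0.64) and 0.30 (95% interval 0.16 to 0.45), and without Hist1h2ap -0.04, 0.21 and 0.01. With Hist1h2ap, low mesenchymal-like cells were thus lower in KO while cycling ones were higher. The class value of mesenchymal-like cells also carries its lower share of cycling cells in KO, a share that itself mixes clusters which the libraries fill unequally.

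Within cycling cells, G2M-high cells differed little, with log2 ratios of KO over WT of 0.03 (95% interval -0.13 to 0.20) in melanoblast-like, 0.04 (95% interval -0.19 to 0.26) in glial-like and 0.03 (95% interval -0.22 to 0.29) in mesenchymal-like cells. S+G2M-high cells were higher in KO in each class, with 0.39 (95% interval 0.16 to 0.62), 0.40 (95% interval 0.21 to 0.60) and 0.97 (95% interval 0.77 to 1.17), from 12, 26 and 19 KO cells. S-high cells gave 0.06 (95% interval -0.39 to 0.49) in melanoblast-like, 1.57 (95% interval 1.01 to 2.14) in glial-like and 0.25 (95% interval -0.24 to 0.76) in mesenchymal-like cells, the glial-like value from 44 WT and 72 KO member UMIs. By family, H2A members of S+G2M-high cells were at 0.52, 0.69 and 1.17, with intervals clear of 0. H2B members there were at 0.74 (95% interval 0.00154 to 1.44), -0.84 (95% interval -1.68 to -0.04) and 0.34 (95% interval -0.49 to 1.18). The H1, H3 and H4 intervals included 0 in each class. Of the member UMIs there, Hist1h2ap held 71 of 205, 193 of 503 and 217 of 526 in KO. In WT it held 163 of 688, 92 of 394 and 94 of 354. Differences between these ratios were not tested.

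The clusters inside each class give the same comparison with a closer match of cell type. Among glial-like clusters, the cluster led by Pcdh20 and Gabra2 had 938 CPM in WT (156 cells) and 1328 in KO (113 cells). The cluster led by Sostdc1 had 967 and 965 CPM, the cluster led by Pou3f1 798 and 1032, and the cluster with Grb14 and Dkk2 among its top genes 655 and 784. The WT and KO intervals were clear of each other in the Pcdh20 and Gabra2 cluster and overlapped in the other 3. Among mesenchymal-like clusters, the Crabp1 and Twist2 cluster had 835 CPM in WT (95% interval 775 to 897) and 1055 in KO (975 to 1140.0), higher in KO with intervals clear of each other. The Mfap5 and Clec3b cluster had 571 and 518 CPM, and the Acta2 and Sfrp4 cluster, with 3 WT and 25 KO cells, 596 and 549, with overlapping intervals. The log2 ratio of the class as a whole was -0.10 (95% interval -0.23 to 0.03). KO mesenchymal-like cells lay mostly in the Mfap5 and Clec3b cluster (132 of 256), and WT ones in the Crabp1 and Twist2 cluster (171 of 215), so the class ratio also mixes clusters of unlike level. Melanoblast-like cells of WT and KO fell mostly in separate clusters: the cluster led by Dqx1 and Trpm1 held 122 of the 139 KO cells and 8 of the 535 WT cells, with 1055 and 844 CPM. The cluster led by Ccnb1 and Pbk, cycling cells, held 126 WT and 11 KO cells, with 1710.2 and 1878 CPM. The other 2 melanoblast-like clusters held 127 and 274 WT cells at 617 and 702 CPM, and 2 and 4 KO cells, too few to compare.

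By family, H2A members in glial-like cells had 334 CPM (WT) and 572 (KO), a log2 ratio of 0.78 (95% interval 0.61 to 0.94). In melanoblast-like cells the H2A ratio was 0.29 (95% interval 0.14 to 0.44), and in mesenchymal-like cells 0.09 (95% interval -0.08 to 0.27). H1 members had 134 CPM in WT and 80.8 in KO mesenchymal-like cells, -0.73 (95% interval -1.09 to -0.37), with -0.10 (95% interval -0.44 to 0.22) in melanoblast-like and 0.20 (95% interval -0.10 to 0.49) in glial-like cells. The H2A sums include Hist1h2ap, at 158 CPM (WT) and 264 (KO) in melanoblast-like and 84.6 and 245 in glial-like cells. Without this gene, the interval of the member sum in melanoblast-like cells included 0. With it, H2A was higher in KO melanoblast-like and glial-like cells. H1 was lower in KO mesenchymal-like cells taken as a class, whose share of cycling cells was also lower in KO. In the S-high, S+G2M-high and G2M-high cells of that class, H1 ratios were -0.18, 0.43 and -0.29, each interval including 0. H2B ratios were -0.01 (95% interval -0.24 to 0.22) in melanoblast-like, -0.07 (95% interval -0.27 to 0.13) in glial-like and -0.15 (95% interval -0.46 to 0.17) in mesenchymal-like cells, all including 0. For H4 they were 0.35 (95% interval 0.03 to 0.67), 0.21 (95% interval -0.22 to 0.65) and -0.22 (95% interval -0.70 to 0.27), and for H3, from few UMIs, -0.05 (95% interval -0.67 to 0.54), 0.98 (95% interval 0.20 to 1.77) and -0.23 (95% interval -0.88 to 0.43). The H4 interval of melanoblast-like cells and the H3 interval of glial-like cells, the latter from 25 WT and 36 KO UMIs, lay above 0 as well.

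Summed over cells, Hist1h2ap was higher in KO in all 3 classes, but most of its KO UMIs lay in few cells. KO cells with at least 5 Hist1h2ap UMIs held 178 of 224 in the melanoblast-like class (20 of 139 cells). They held 241 of 293 in the glial-like class (26 of 254) and 293 of 322 in the mesenchymal-like class (22 of 256). In WT such cells held 185 of 402, 56 of 138 and 86 of 149, in the same order. After thinning, the WT and KO shares of cells with a Hist1h2ap UMI had overlapping intervals in each class. In melanoblast-like cells Hist1h2ap had 158 CPM (WT) and 264 (KO), a log2 ratio of 0.73 (95% interval 0.49 to 0.97). In glial-like cells it had 84.6 and 245 CPM, 1.54 (95% interval 1.24 to 1.84), and in mesenchymal-like cells 140.2 and 213 CPM, 0.61 (95% interval 0.32 to 0.90). In S+G2M-high cells the ratio was 0.94 (95% interval 0.51 to 1.35) in melanoblast-like, 1.12 (95% interval 0.75 to 1.49) in glial-like and 1.61 (95% interval 1.25 to 1.97) in mesenchymal-like cells, and in G2M-high cells 0.59 (95% interval 0.25 to 0.93), 1.25 (95% interval 0.64 to 1.89) and 0.84 (95% interval 0.23 to 1.47). In S-high cells it was 0.77 (95% interval -0.33 to 1.80), 3.08 (95% interval 1.24 to 5.52) and 0.64 (95% interval -0.28 to 1.66), the glial-like value from 3 WT UMIs. Counting UMIs as independent, the difference was thus clear of counting error in the states with high G2/M counts. In S-high cells it was so in the glial-like class alone. Hist1h2ae, the next most abundant H2A gene, did not share it, with -0.30 (95% interval -0.67 to 0.05) in melanoblast-like, 0.03 (95% interval -0.31 to 0.38) in glial-like and -0.73 (95% interval -1.16 to -0.31) in mesenchymal-like cells. In G2M-high cells Hist1h2ae gave -0.35 (95% interval -0.86 to 0.13), -1.33 (95% interval -2.21 to -0.52) and -1.35 (95% interval -2.38 to -0.41), lower in KO in the latter classes while Hist1h2ap was higher. In S+G2M-high cells it gave -0.67 (95% interval -1.50 to 0.07), -0.25 (95% interval -0.70 to 0.20) and 0.48 (95% interval -0.08 to 1.03), and in S-high cells 0.37 (95% interval -1.14 to 1.72), 1.60 (95% interval -0.77 to 4.28) and -0.37 (95% interval -2.17 to 1.59), with 0 inside each interval. Most of the Hist1h2ap transcript cannot be told from other H2A transcripts, so a difference in its count is a difference in what the submitters' counting assigned to it.

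Hist1h2ac was higher in KO in melanoblast-like cells, from 19 UMIs (WT) and 24 (KO), at a log2 ratio of 1.91 (95% interval 0.98 to 2.86), and in glial-like cells, from 5 and 18 UMIs, at 2.30 (95% interval 0.82 to 4.08). In mesenchymal-like cells it had 0.56 (95% interval -0.54 to 1.74). Hist3h2ba in melanoblast-like cells had 8.67 CPM (WT) and 38.8 (KO), 2.16 (95% interval 1.34 to 3.01). In mesenchymal-like cells it had 6.59 and 19.9 CPM, 1.59 (95% interval 0.38 to 3.02), and in glial-like cells 93.8 and 92.9 CPM, -0.01 (95% interval -0.38 to 0.35). Hist3h2ba was thus highest in glial-like cells of both libraries, and in KO the other classes came nearer to the glial-like level. Hist1h2af in melanoblast-like cells had 38 WT and 2 KO UMIs, -2.67 (95% interval -5.77 to -0.72), but 11 and 27 in glial-like cells, 1.75 (95% interval 0.69 to 2.90). Hist1h3c had 4 WT and 13 KO UMIs in glial-like cells, 2.15 (95% interval 0.46 to 4.22), and 21 and 9 in mesenchymal-like cells, -1.73 (95% interval -3.04 to -0.54). These genes went opposite ways in different classes, from few UMIs. In mesenchymal-like cells, Hist1h1c was -0.83 (95% interval -1.39 to -0.28), Hist1h1e -1.18 (95% interval -1.97 to -0.43) and Hist1h2bc -0.46 (95% interval -0.84 to -0.07), all lower in KO. Hist1h1b was lower in KO melanoblast-like cells, -0.86 (95% interval -1.62 to -0.16), and Hist3h2a in glial-like cells, -0.58 (95% interval -1.12 to -0.06), while Hist1h2ag was higher in glial-like cells, 0.78 (95% interval 0.14 to 1.42). The intervals of Hist1h4i, Hist1h4d, Hist1h2ak, Hist1h2al, Hist1h2bj and Hist2h2ac included 0 in every class.

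Read against all genes, members at least 2-fold higher in KO were 3 of 28 in melanoblast-like cells (Hist3h2ba, Hist1h2ai and Hist1h2ac), where 3.82% of all genes were, and 5 of 18 in glial-like cells (Hist1h2ao, Hist1h2ap, Hist1h2af, Hist1h2ac and Hist1h2ab), against 3.85%. In mesenchymal-like cells it was 1 of 18 (Hist3h2ba), against 6.31%, which is at the background. Members at least 2-fold lower were 2 of 28 in melanoblast-like cells (Hist1h2af and Hist1h3e), against 4.23%, 0 of 18 in glial-like cells, against 2.48%, and 3 of 18 in mesenchymal-like cells (Hist1h4d, Hist1h1e and Hist1h3c), against 3.06%. Some members reached the UMI minimum mostly through the library where they are high. Hist1h2ac had 5 WT and 18 KO UMIs in glial-like cells, and Hist1h2af 11 and 27. In melanoblast-like cells Hist1h2af had 38 and 2. In mesenchymal-like cells Hist3h2ba had 7 and 30, and Hist1h3c 21 and 9. The counts and medians of KO over WT thus rest partly on such members. In the glial-like list, Hist1h2ao and Hist1h2ap have 6.90% and 7.35% unique transcript windows, so the counts of those 2 cannot be told apart from those of other H2A genes over most of their length. Hist1h2ai, Hist1h2ao, Hist1h2ab and Hist1h3e had fewer than 100 UMIs and are named because their counts are 5 or fewer, after their values were seen. The members read had a median log2 ratio of -0.10 in melanoblast-like, 0.63 in glial-like and -0.20 in mesenchymal-like cells, against -0.01, -0.01 and -0.00370 over all genes.

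**Figure D3:**
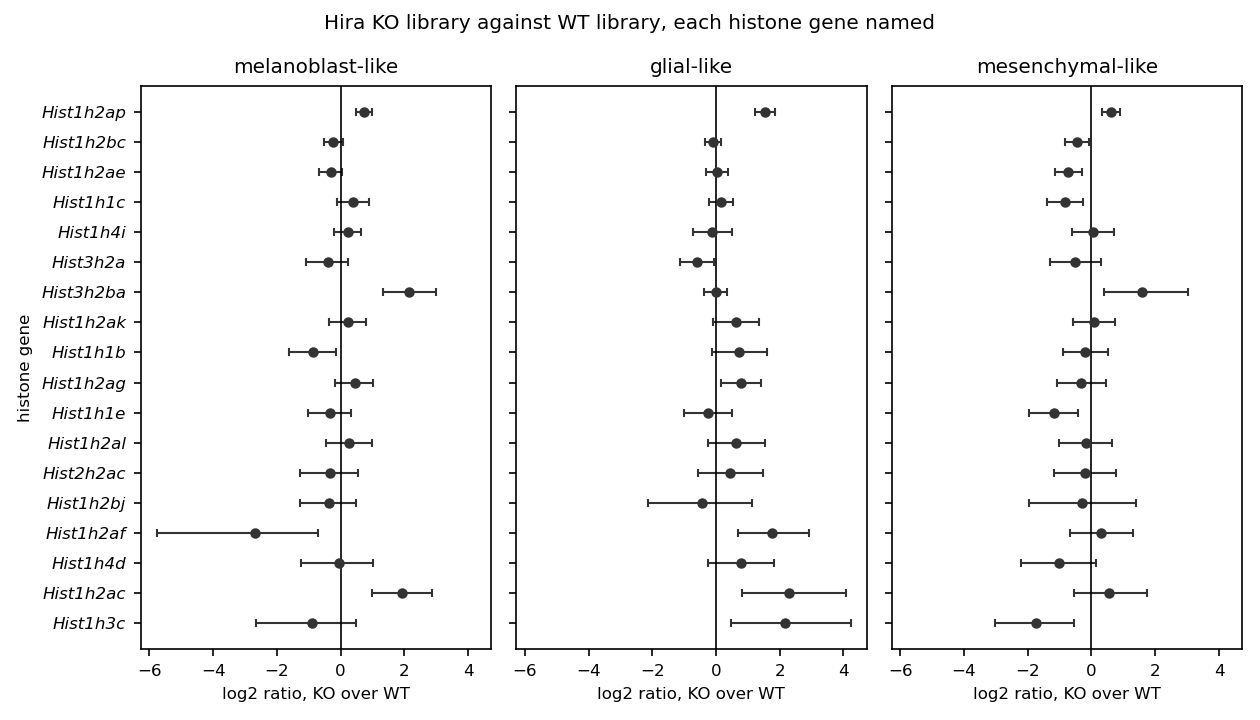
Log2 ratio of KO over WT (horizontal axis, conditional binomial 95% intervals) for the 18 named members in the melanoblast-like, the glial-like and the mesenchymal-like class. Hist1h2ap lies above 0 in all 3 classes (0.73, 1.54 and 0.61).

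Genes that work with these histones were read from 3 lists. Replacement variants are histones that can be made outside replication, mostly from polyadenylated mRNA. Of the 11 listed, Cenpa also sits in the G2/M list and was left out, so 10 were read. Their sum was far above that of the members, with 8951 CPM (WT) and 10288 (KO) in melanoblast-like cells, 8554 and 9663 in glial-like cells and 8149 and 6308 in mesenchymal-like cells. Of the H3.3 genes, whose product HIRA deposits, H3f3a had a log2 ratio of cycling over low cells of 0.05 in WT and 0.28 in KO, and H3f3b 0.10 and -0.01. Across the states of WT, from low to G2M-high, H3f3a had 1983, 1839, 2118 and 2122 CPM and H3f3b 2390.0, 1741, 2890.5 and 2820.1. H2afz, an H2A variant of active promoters, went from 1175 to 3700.5 CPM from low to G2M-high cells in WT and from 1081 to 3505 in KO. H2afx, the variant phosphorylated at DNA breaks, went from 49.8 to 477 in WT and from 76.9 to 453 in KO. Variants at least 2-fold higher in cycling than in low cells were 2 of 9 in WT (H2afz and H2afx) and 1 of 9 in KO (H2afx) melanoblast-like, 4 of 10 and 4 of 10 in glial-like (H2afz, H2afv, H2afx and H1fx in each) and 3 of 10 and 3 of 10 in mesenchymal-like cells. Of all genes, 5.3%, 5.32%, 5.23%, 5.79%, 8.07% and 4.88% were higher in these groups, in the same order. Between genotypes, 1 of 10 passed the fold in melanoblast-like cells (H2afy2, a macroH2A gene, higher in KO, against 3.82% of all genes) and 0 of 10 in the other classes. Between S+G2M-high and S-high cells, 3 of 10 variants were higher in WT and 5 of 10 in KO, against 4.36% and 4.77% of all genes. The median log2 ratio of KO over WT of the variants was 0.18 in melanoblast-like, 0.23 in glial-like and -0.33 in mesenchymal-like cells.

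The list of 16 genes for histone mRNA processing and transcription held Slbp, which codes for the protein that binds the stem-loop. Slbp had 83.9 CPM in low, 218 in S-high, 331 in S+G2M-high and 94.9 in G2M-high cells of WT, and 71.3, 227, 338 and 78.6 in KO. Slbp was thus raised in both states with S phase RNA and near its low-cell level in G2M-high cells, where the member sum was high. Eri1, a nuclease that trims histone mRNA ends, had a log2 ratio of cycling over low cells of 1.48 in WT and 0.73 in KO. Npat, which activates histone gene transcription at their nuclear bodies, was at 9.75 CPM in WT and 8.91 in KO over whole libraries, from 69 and 45 UMIs. Its log2 ratio of cycling over low cells of the 3 classes was -0.09 (95% interval -0.99 to 0.81) in WT and 1.28 (95% interval 0.16 to 2.48) in KO, the latter from 11 low-cell UMIs. Genes of this list at least 2-fold higher in cycling than in low cells were 0 of 14 in WT and 1 of 8 in KO (Lsm10) melanoblast-like, 3 of 12 (Slbp, Eri1 and E2f1) and 2 of 11 (Slbp and Upf1) glial-like, and 2 of 7 (Slbp and Eri1) and 2 of 10 (Slbp and Casp8ap2) mesenchymal-like cells, while 1 of 10 (Upf1) was lower in KO mesenchymal-like cells. Of all genes, 5.3%, 5.32%, 5.23%, 5.79%, 8.07% and 4.88% were higher in these groups in the same order, and 3.91% were lower in KO mesenchymal-like cells. Between genotypes, 1 of 14 passed the fold in mesenchymal-like cells, near the 6.31% of all genes higher in KO. This was E2f3, from 5 WT and 18 KO UMIs, with a log2 ratio of 1.34 (95% interval -0.14 to 3.13) that includes 0. In melanoblast-like and glial-like cells 0 of 14 passed, where 3.82% and 3.85% of all genes were higher and 4.23% and 2.48% lower. Between S+G2M-high and S-high cells, 0 of 12 were higher in WT and 0 of 9 in KO, against 4.36% and 4.77% of all genes, and 1 of 12 (E2f3) was lower in WT and 1 of 9 (E2f1) in KO, against 2.46% and 4.07%. The median log2 ratio of KO over WT was 0.03 for melanoblast-like, 0.15 for glial-like and -0.20 for mesenchymal-like cells.

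The list of 17 histone chaperones held the replication-coupled CAF-1 subunits Chaf1a and Chaf1b, the H3 and H4 carriers Asf1a, Asf1b and Nasp, and Hira with its partners Ubn1, Ubn2 and Cabin1. Asf1b had 8.84 CPM in low and 101 in S+G2M-high WT cells, and 5.06 and 81.5 in KO. Chaf1b had 22.5 and 71.3 in WT and 11.6 and 86.3 in KO, and Nasp 112 and 314 in WT and 92.0 and 285 in KO. The member sum of S-high cells was below that of S+G2M-high cells in each class of both libraries. In S-high cells, Asf1b had 43.3 CPM in WT and 53.4 in KO, Chaf1b 49.3 and 77.8, and Nasp 279 and 211. These carriers were thus above their low-cell level in both states with S phase RNA. Chaperones at least 2-fold higher in cycling than in low cells were 4 of 17 in WT (Chaf1a, Asf1b, Hira and Ssrp1) and 2 of 13 in KO (Asf1b and Hat1) melanoblast-like, 4 of 15 (Chaf1b, Asf1b, Nasp and Daxx) and 5 of 14 (Chaf1a, Chaf1b, Asf1b, Nasp and Hat1) glial-like, and 4 of 14 (Chaf1b, Asf1a, Asf1b and Hat1) and 5 of 15 (Chaf1a, Chaf1b, Asf1b, Nasp and Hat1) mesenchymal-like cells, with 1 of 15 (Ubn2) lower in WT glial-like cells. The shares of all genes were 5.3%, 5.32%, 5.23%, 5.79%, 8.07% and 4.88% for higher genes in the same order, and 3.64% for lower genes in WT glial-like cells. Between S+G2M-high and S-high cells, 1 of 16 was higher in WT (Asf1b) and 1 of 14 in KO (Supt16), against 4.36% and 4.77% of all genes. The chaperones had a median log2 ratio of KO over WT of -0.04, -0.05 and -0.16 in the classes in the usual order. Between genotypes, 1 of 17 passed the fold, in melanoblast-like cells, where 4.23% of all genes were lower: Hira, with 35 UMIs (13.8 CPM) in WT and 3 (3.53 CPM) in KO for melanoblast-like cells, a log2 ratio of -1.97 (95% interval -4.31 to -0.30). In glial-like cells Hira had 18 WT and 9 KO UMIs, -0.55 (95% interval -1.89 to 0.68), and in mesenchymal-like cells 0.58 (95% interval -0.71 to 2.002). The Hira tag was thus lower in KO melanoblast-like cells, and not detectably different in the other classes at this depth.

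In GENCODE M21 (GRCm38), 65 of the 67 members were matched to a gene by their deposited identifier. Hist1h2bm and Hist1h2bh were not matched this way, and their models were not read. Of the matched members, 51 lie on chromosome 13, the site of the large Hist1 cluster, with 9352 UMIs, 11 on chromosome 3 with 371, 2 on chromosome 11 (Hist3h2a and Hist3h2ba) with 897 and 1 on chromosome 6 with 25. The stem-loop was searched on the transcript strand after the stop codon as a hairpin of 16 bases. Its first arm starts with GG and ends with CT, its arms pair exactly over 6 bases, and its loop has 4 bases and opens with T. The model with the most bases after the stop codon was read for each gene. The hairpin was found in 43 of 65 members and in 44 of 58731 protein-coding transcripts not matched to a member (0.0749%, searched over the whole transcript). The stretch between stop codon and hairpin was 21 to 58 bases, with a median of 32, and 15 models end at most 2 bases after the stop codon and cannot show it. Nor can that of Hist1h2al, a processed pseudogene in which no stop codon was found. Hist1h2bp lacked the hairpin in the model read and has it in its other model, and the model of 1 of the pair of genes labelled Hist2h2bb (ENSMUSG00000050936) is a lincRNA. By family the hairpin was found in 12 of 13 H4, 11 of 19 H2A, 9 of 12 H3, 7 of 15 H2B and 4 of 6 H1 members, in the models read. The form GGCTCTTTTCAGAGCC stood in 23 members, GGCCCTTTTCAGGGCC in 7 and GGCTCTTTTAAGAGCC in 6. The stem-loop stretches of Hist1h2ap, Hist1h2ae, Hist1h1c, Hist3h2ba, Hist1h4i and Hist1h3c are printed with the hairpin in capitals, since these members cover all 5 families and both courses across cycling states; T stands for U and coordinates are GRCm38.
Hist1h2ap chr13:21833026-21833049 minus strand: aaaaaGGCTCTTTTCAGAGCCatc
Hist1h2ae chr13:23570663-23570688 minus strand: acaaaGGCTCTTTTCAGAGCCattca
Hist1h1c chr13:23739507-23739532 plus strand: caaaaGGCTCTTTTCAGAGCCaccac
Hist3h2ba chr11:58949344-58949369 plus strand: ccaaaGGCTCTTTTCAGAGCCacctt
Hist1h4i chr13:22040961-22040986 minus strand: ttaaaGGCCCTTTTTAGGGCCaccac
Hist1h3c chr13:23745042-23745067 minus strand: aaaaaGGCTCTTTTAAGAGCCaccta

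In these stretches the hairpin letters of Hist1h2ap, Hist1h2ae, Hist1h1c and Hist3h2ba are the same, so members that peaked in cycling cells and members that were below 0 over the 3 classes share that hairpin. The model of Hist1h2ap ends 3 bases after the hairpin, and those of Hist1h2ae, Hist3h2ba and Hist1h1c go on for 151, 169 and 840 bases. Of the 10 named members above 0 with a hairpin, 5 go on for over 100 bases, as do the 3 below 0 with a hairpin. Hist3h2a goes on for 1643 bases, and Hist1h2bc has no hairpin by this search in the 742 bases after its stop codon. The poly(A) signal AATAAA, searched on the transcript strand after the stop codon, was present in 17 of 65 members. Among the named members it was present in all 4 that were below 0 in both libraries (Hist1h2bc, Hist1h1c, Hist3h2a and Hist3h2ba) and in 2 of the other 14 (Hist1h2ae and Hist1h2ac). Of those 14, Hist1h2al and 3 whose models end at the stop codon (Hist1h2ak, Hist1h1b and Hist1h2af) cannot show it. In the last 50 bases of the model, AATAAA stood in 12 of 65 members, including 3 of those 4, against 40.6% of protein-coding transcripts not matched to a member. A match of letters describes the model only.

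How far counts can be told apart was read as the share of 75-base windows of a member's transcripts that no other gene's transcript holds. The median over 65 members was 57.6%, from 0% to 100%. Hist1h2ap had 7.35% unique windows and shared the rest with 19 genes, and Hist1h2ag had 22.4%. Hist1h1b had 100%, Hist1h1c 93.3% and Hist1h1e 71.6%, Hist1h2bc 72.9% and Hist3h2ba 86.1%. Hist1h2ap, the leading member of KO and of both libraries together, is thus among the least distinct. Hist1h2bc, the leading member of WT, lies above the median. Hist1h2al is classed as a processed pseudogene in GENCODE M21, with 54.3% unique windows.

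RefSeq promoters (GRCm38.p6, 250 bases before to 50 after the gene's start) matched 58 of the 66 symbols. Motifs were searched on both strands. The box CCAAT, which the factor NF-Y binds, is spelled from the opposite strand as ATTGG. The TATA box was searched as TATAAA, which from the opposite strand is spelled as TTTATA. The octamer of histone promoters was searched as ATTTGCAT, which from the opposite strand is spelled as ATGCAAAT. CCAAT stood in 84.5% of member promoters, against 41.1% of all 27025, and was found in every H1, H2A, H2B and H3 promoter but in 3 of 12 H4 promoters. TATAAA stood in 60.3%, against 15.7%. ATTTGCAT stood in 22.4%, against 1.97%, in 7 of 18 H2A and 6 of 12 H2B promoters and in 0 of the H1, H3 and H4 promoters. The families thus differ by these letters, with the octamer in H2A and H2B and CCAAT scarce in H4. Promoters of Hist1h2ap, Hist1h2ae, Hist1h1b, Hist3h2ba and Hist1h4i are printed with the motifs in capitals, since the first 3 peaked in S+G2M-high cells, Hist3h2ba was below 0 over the 3 classes, and Hist1h4i shows an H4 promoter without CCAAT.
Hist1h2ap chr13:21833426-21833725 minus strand: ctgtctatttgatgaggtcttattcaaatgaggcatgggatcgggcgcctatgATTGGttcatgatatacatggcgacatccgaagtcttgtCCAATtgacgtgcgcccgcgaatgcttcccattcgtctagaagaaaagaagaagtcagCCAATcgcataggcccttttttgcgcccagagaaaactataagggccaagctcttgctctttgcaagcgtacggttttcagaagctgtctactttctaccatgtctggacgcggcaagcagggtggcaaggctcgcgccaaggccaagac
Hist1h2ae chr13:23571171-23571470 minus strand: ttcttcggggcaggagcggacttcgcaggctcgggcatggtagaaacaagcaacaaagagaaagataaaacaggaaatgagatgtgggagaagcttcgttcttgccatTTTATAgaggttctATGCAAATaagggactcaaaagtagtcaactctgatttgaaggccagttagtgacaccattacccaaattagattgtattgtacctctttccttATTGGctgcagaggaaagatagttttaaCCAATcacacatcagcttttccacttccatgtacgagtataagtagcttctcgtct
Hist1h1b chr13:21780576-21780875 minus strand: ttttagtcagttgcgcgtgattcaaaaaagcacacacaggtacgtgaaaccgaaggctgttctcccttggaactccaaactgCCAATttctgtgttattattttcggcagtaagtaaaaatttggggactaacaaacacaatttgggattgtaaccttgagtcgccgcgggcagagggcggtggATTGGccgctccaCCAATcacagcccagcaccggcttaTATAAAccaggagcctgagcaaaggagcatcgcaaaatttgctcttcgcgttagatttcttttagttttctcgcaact
Hist3h2ba chr11:58948661-58948960 plus strand: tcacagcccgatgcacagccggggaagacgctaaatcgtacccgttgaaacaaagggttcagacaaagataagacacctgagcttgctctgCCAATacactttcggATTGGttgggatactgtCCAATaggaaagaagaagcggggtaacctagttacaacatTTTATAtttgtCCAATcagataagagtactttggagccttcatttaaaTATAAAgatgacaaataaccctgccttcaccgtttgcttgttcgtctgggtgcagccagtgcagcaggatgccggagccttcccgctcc
Hist1h4i chr13:22041313-22041612 minus strand: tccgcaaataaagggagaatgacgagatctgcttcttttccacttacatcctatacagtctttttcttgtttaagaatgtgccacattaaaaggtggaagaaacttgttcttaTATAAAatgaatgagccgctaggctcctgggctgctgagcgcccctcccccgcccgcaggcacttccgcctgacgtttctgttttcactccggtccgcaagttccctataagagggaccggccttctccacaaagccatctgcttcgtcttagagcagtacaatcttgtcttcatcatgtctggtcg

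Of these windows, Hist1h2ae alone holds all 3 motifs, and Hist1h2ap holds CCAAT only. In 8 divergent pairs an H2A and an H2B gene share 220 to 279 bases of promoter window, and they differ in UMIs. Hist1h2ae had 1055 UMIs over both libraries and its partner Hist1h2bg 43, on a shared stretch of 279 bases. Hist1h2ak had 348 and its partner Hist1h2bn 17, while Hist1h2ag had 319 and Hist1h2bj 149. In each of these pairs the H2A gene had the larger count, whereas in 2 of the 8 (Hist1h2bk with Hist1h2ah, and Hist1h2bf with Hist1h2ad) the H2B gene did. Hist1h2bg, Hist1h2bn, Hist1h2bk, Hist1h2ah, Hist1h2bf and Hist1h2ad fall under 100 UMIs and are named as partners, after their counts were seen.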

How the data were processed

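The UMI counts per gene and barcode are those the authors deposited, made with Cell Ranger 2.2.0 on mm10 according to the submitters' processing notes. Cells with at least 100 genes, at most 40000 UMIs and at most 10% mitochondrial UMIs were kept, and doublets were not removed. For clustering, each cell was brought to 10000 UMIs and logged in scanpy 1.11.5 (Python 3.11.15, numpy 2.4.6, scipy 1.17.1, pandas 2.3.3, anndata 0.12.19, igraph 0.11.9, matplotlib 3.10.9). Of 2000 variable genes, 1975 entered the clustering after members and cell cycle genes were held out, with 30 components, 15 neighbours and Leiden resolution 1. A cluster took the name of the marker list with the largest share of raised genes (seen in 10% of its cells, log2 of 1 or more over other cells with 10 CPM added) when at least 3 were raised and no other list held more of its top 10 genes. CPM values are summed raw UMIs over the cells of a group. Members with at least 100 UMIs over both libraries are named with values. Other members are named only where a count of members is 5 or fewer, where their transcript model is singled out or as promoter partners. Members, lists and limits were chosen with earlier results of these data known. The ratio and state steps were tested on simulated data with counting error only. There, genes with at least 100 expected UMIs were changed 3-fold up or down. All of them were found past the fold limit, and some unchanged genes were too. Such data do not show how well a 2-fold change, or a gene with 20 UMIs, would be read. Transcripts are from GENCODE M21 and promoters from RefSeq.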

Additional observations from a re-analysis of the deposited data

Results flagged for a closer look

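Between cell classes of the same libraries, some members differed in opposite directions. Hist1h2af had a log2 ratio of KO over WT of -2.67 in melanoblast-like cells, from 2 KO UMIs, and 1.75 in glial-like cells, with intervals on opposite sides of 0. Hist1h3c had 2.15 in glial-like cells and -1.73 in mesenchymal-like cells, in the same way. The sum of all members without Hist1h2ap had 0.19 in glial-like cells and -0.31 in mesenchymal-like cells. With 1 library per genotype, the difference between the classes was not tested, and its cause was not tested.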

How the results depend on the processing

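Of 258 values recomputed under another setting, 194 stayed within the counting interval of the reported value (for counts of genes, within 1.5 times), 60 moved further and 4 changed sign from a reported interval clear of 0. Values whose reported interval included 0, such as KO over WT in low glial-like cells, could change sign without being among the 4. No value moved or was among the 4 with Leiden resolution 0.5 or 2, with the cell cycle lists kept in the clustering, with another thinning seed, or without the deepest cells of each library. Values below are log2 ratios, percent or counts of members; unless said otherwise the cause of a shift was not tested.

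With cells of at least 500 genes, the melanoblast-like member sum of KO over WT became -0.0438, its low cells 1.15, its cycling cells -0.81 and KO cycling over low cells -0.82; 6 KO cells remained melanoblast-like and 155 KO cells fell in unnamed clusters. Glial-like low cells became -0.0385, and KO glial-like cycling over low cells 1.69. Thinned to 2000 UMIs, KO over WT was 0.28 in melanoblast-like, 0.25 in glial-like and -0.0445 in low glial-like cells, and cycling over low cells 0.84 in WT glial-like and 2.39 in KO mesenchymal-like cells. As a mean of cells, WT glial-like cycling over low cells was 0.89.

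Without Hist1h2ap, KO over WT was 0.0376 in melanoblast-like, 0.19 in glial-like and -0.31 in mesenchymal-like cells, and in cycling cells -0.0431, 0.21 and 0.00944. Cycling over low cells was then 0.92 in WT and 0.60 in KO melanoblast-like, 0.86 and 0.95 in glial-like, and 1.63 and 2.02 in mesenchymal-like cells; these shifts follow from leaving out the gene.

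With limits of 3 S or 5 G2/M UMIs, the cycling share was 68% in WT and 77.0% in KO melanoblast-like, 56.5% and 57.3% in glial-like and 62.6% and 50.6% in mesenchymal-like cells. Cycling over low cells was 1.00 in WT melanoblast-like, 0.69 in WT and 1.23 in KO glial-like, and 1.55 and 2.19 in mesenchymal-like cells, and KO over WT in low glial-like cells -0.0370. With 8 S or 15 G2/M UMIs, the shares were 33.0% and 34.5%, 27.1% and 26.8%, and 35.9% and 21.5%, and KO over WT in cycling mesenchymal-like cells was 0.56. The shift of the shares is what a looser or stricter limit makes. By scanpy phase, the WT melanoblast-like share was 53.0%.

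Counts of members are given out of the members read, with the share of all genes past the same limit in brackets. Members past a 1.5-fold difference of KO and WT in either direction were 11 of 28 (21.5%) in melanoblast-like, 10 of 18 (19.5%) in glial-like and 8 of 18 (25.0%) in mesenchymal-like cells, and past 3-fold 3 of 28 (2.58%) in melanoblast-like, 4 of 18 (1.42%) in glial-like and 2 of 18 (2.68%) in mesenchymal-like cells. Past 2-fold with at least 10 UMIs they were 8 of 39 (11.8%) in melanoblast-like, 6 of 25 (10.4%) in glial-like and 7 of 25 (13.4%) in mesenchymal-like cells, and with at least 50 UMIs 1 of 14 (3.39%) in melanoblast-like, 1 of 11 (2.68%) in glial-like and 1 of 11 (5.16%) in mesenchymal-like cells. Members at least 2-fold higher in cycling cells with at least 10 UMIs were 27 of 34 (7.43%) in WT and 13 of 18 (8.41%) in KO melanoblast-like, 12 of 16 (7.30%) and 14 of 19 (8.23%) in glial-like, and 14 of 17 (11.7%) and 13 of 17 (6.996%) in mesenchymal-like cells. With at least 50 UMIs they were 10 of 13 (3.71%) in WT and 2 of 4 (2.21%) in KO melanoblast-like, 3 of 7 (3.22%) and 2 of 5 (3.23%) in glial-like, and 2 of 4 (4.24%) and 4 of 6 (2.86%) in mesenchymal-like cells.

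No paired analysis was possible because each genotype has 1 embryo. Depth limits the H3 family and every member with few UMIs, whose ratios have wide intervals, and non-polyadenylated mRNA is mostly not read by this kit.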
